A study of Mus musculus with 4 samples.

Results

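The 8 genes described here, *Uox*, *Xdh*, *Pnp*, *Ada*, *Gda*, *Ampd3*, *Nt5e* and *Upp1*, encode enzymes of purine breakdown and a related enzyme that breaks down uridine. They were chosen by symbol from the 24346 gene symbols of the deposited tables, and all 8 were found. The choice was made with the difference between the diets in view, so their levels and differences are given as a description, with no test. Gene expression was measured by RNA sequencing in dorsal skin of male wild type C57BL/6 mice whose diet began at an age of 8 weeks. Every mouse received the NASH diet (high in fat, cholesterol and sucrose, with bile salt) for 3 weeks and a 5% imiquimod (IMQ) cream for 1 day. The diet of the 7KC-IMQ group also contained 7-ketocholesterol (7KC), an oxidized cholesterol, and that of the Cont-IMQ group did not. There were 2 libraries in each group, and skin without IMQ is not part of the comparison. Neither the labels nor the methods say whether a library came from a single mouse, so the spread between libraries may be partly technical.

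Purine breakdown turns nucleotides into nucleosides, then into bases and then into urate. At the cell surface CD73 releases adenosine from AMP, and inside the cell AMP deaminase turns AMP into IMP. Adenosine deaminase, purine nucleoside phosphorylase and guanine deaminase then lead to hypoxanthine and xanthine, which xanthine dehydrogenase oxidizes to urate. Mice, unlike humans, have an active urate oxidase, best known from the peroxisomes of the liver, which carries urate on toward allantoin.

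Values are FPKM, the fragments of a gene divided by its exon length and by the mapped fragments of the library, a level per length that can be set side by side between genes. The estimated depth was between 15070000 and 16360000 mapped reads per library, found from low values that fall in steps of 1 read. The lowest FPKM of any of the 8 genes was 2.68, and an FPKM of at most 0.998 would correspond to 3 reads on the shortest annotated coding transcript of any of them. The skin markers *Krt5*, *Krt14*, *Krt1*, *Krt10*, *Lor* and *Ivl* summed to between 16003 and 23891 FPKM in every library. Hair follicle genes set Cont-IMQ replicate 2 apart, with a sum over *Krt31*, *Krt71*, *Lef1* and *Msx2* of 533 FPKM against 39.6 FPKM in Cont-IMQ replicate 1 and between 121 and 147 FPKM in 7KC-IMQ skin.

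**Figure D1:**
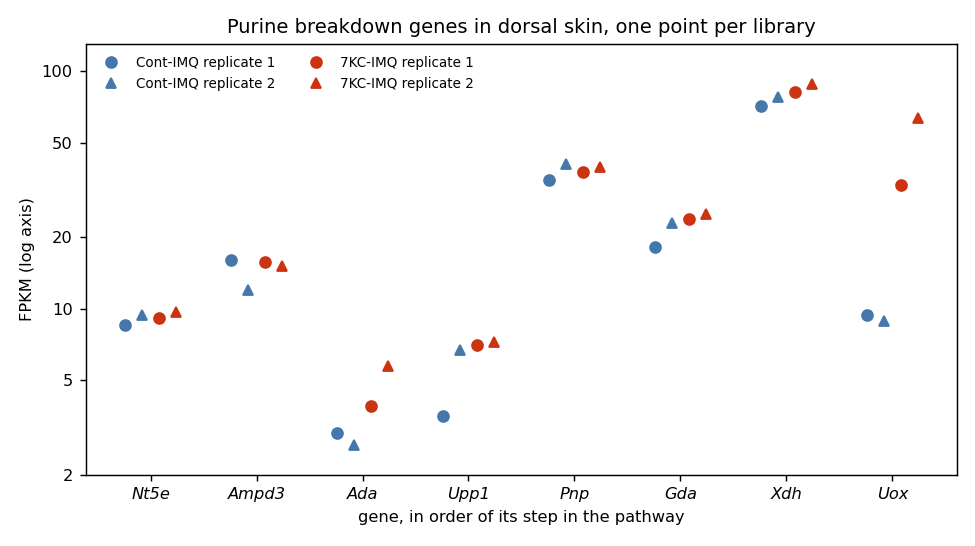
FPKM of the 8 genes on a log axis, one point per library, with blue points for the Cont-IMQ group and red points for the 7KC-IMQ group. *Uox* lies near 9 FPKM in both Cont-IMQ libraries and at 33.0 and 63.3 FPKM in 7KC-IMQ skin, whereas in each of the other 7 genes a 7KC-IMQ library lies at most 2.14-fold above a Cont-IMQ library.

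*Uox* (ENSMUSG00000028186.14, plus strand of chromosome 3 of GRCm38, the assembly also called mm10, from 146570426 to 146632305) encodes urate oxidase. Its FPKM was 9.44 in Cont-IMQ replicate 1, 8.86 in Cont-IMQ replicate 2, 33.0 in 7KC-IMQ replicate 1 and 63.3 in 7KC-IMQ replicate 2, and values of a group are given in this order from here on. The Cont-IMQ libraries were close to each other, and both 7KC-IMQ libraries lay far above them although they differed 1.91-fold from each other. The Cont-IMQ mean was 9.15 ± 0.414 FPKM and the 7KC-IMQ mean 48.2 ± 21.4 FPKM (SD, n = 2 for each), a ratio of 5.26. Taking single libraries, the ratio of a 7KC-IMQ library to a Cont-IMQ library lay between 3.50 and 7.14. On the log2(FPKM + 1) scale the difference was 2.20, with an SD within groups of 0.46. Of the 15896 genes tested, those whose FPKM averaged 0.1 or more, *Uox* had the 12th largest difference toward the 7KC-IMQ group. In bulk skin, more cells that express a gene and more RNA per cell cannot be told apart.

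The start of *Uox* is shown because this gene differed most, and that of *Ada* because its difference was the next largest of the 8. Both are RefSeq sequences of GRCm38.p6, written 5′ to 3′ along the gene's strand, and the capitals mark the first 30 bases from the first annotated transcript start within the stretch. The *Uox* stretch is chr3:146596899-146597106 on the plus strand, and the *Ada* stretch is chr2:163750210-163750489 on the minus strand. The *Uox* stretch lies inside the annotated span of the gene, since 1 of its 6 annotated transcripts starts before it.
Uox: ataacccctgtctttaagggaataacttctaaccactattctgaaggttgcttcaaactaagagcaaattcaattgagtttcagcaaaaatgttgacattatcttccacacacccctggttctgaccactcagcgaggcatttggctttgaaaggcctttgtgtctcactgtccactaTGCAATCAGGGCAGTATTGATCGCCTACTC
Ada: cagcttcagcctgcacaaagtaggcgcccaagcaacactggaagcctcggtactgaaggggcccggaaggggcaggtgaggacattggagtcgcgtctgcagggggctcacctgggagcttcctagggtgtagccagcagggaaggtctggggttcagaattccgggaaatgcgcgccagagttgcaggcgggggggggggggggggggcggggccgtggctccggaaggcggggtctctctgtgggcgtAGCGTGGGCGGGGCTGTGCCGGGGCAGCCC

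The 2 starts differ in base composition. In the RefSeq windows from 250 bases before to 50 bases after a start, 43.0% of the *Uox* window and 68.0% of the *Ada* window was G or C, against a median of 52.7% over 32817 windows of all genes. A lower share was found in 16.5% of windows for *Uox* and in 87.4% for *Ada*. RefSeq windows were found for 7 of the 8 genes (*Xdh* had none), 11 windows in all. They were searched on both strands for 6 motifs. These were the TATA box (TATAAA), the box bound by the factor NF-Y (CCAAT), the AP-1 site (TGANTCA), the STAT site (TTCNNNGAA), the NF-kB site (GGG and TTTCC with 2 bases between) and the E-box (CACGTG). The *Uox* window held none of the 6, which occur in between 1.63% and 37.4% of all windows. The *Ada* window held TTCCGGGAA, which begins 90 bases before the start and matches the STAT letters that 8.29% of all windows hold, and CCAAT on the other strand. CCAAT was also in the window of *Pnp*, that of *Gda* and 2 of the 3 of *Ampd3*, and the window of *Nt5e* held none of the 6. TGANTCA was in 2 overlapping windows of *Upp1* and in 1 of *Ampd3*, and 7.81% of all windows hold it. A match is a description of letters and not of a bound site.

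**Figure D2:**
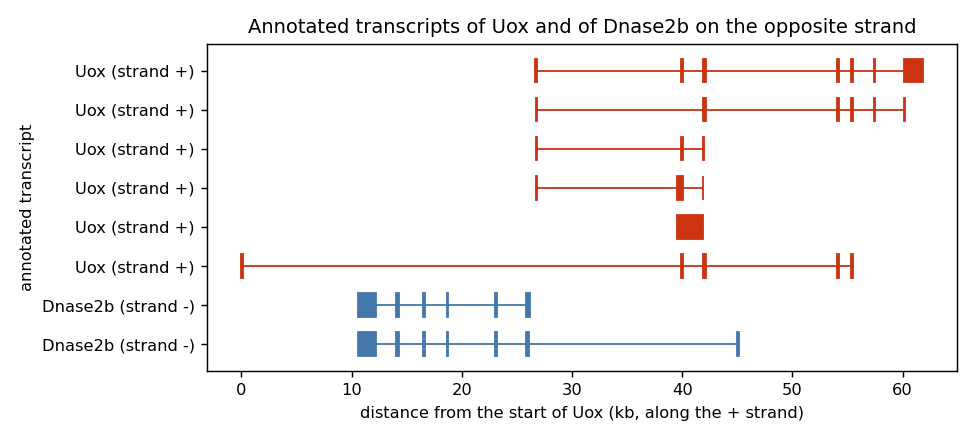
Annotated transcripts (GENCODE M21) of *Uox*, in red, and of *Dnase2b* on the opposite strand, in blue, by distance in kb from the first base of *Uox*, with boxes for exons. *Dnase2b* lies within *Uox*, and their exons share 0 bases.

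*Dnase2b*, which encodes an acid DNase, overlaps *Uox* on the opposite strand over 34612 bases, its whole length, and shares 0 exon bases with it, as the map of the 2 genes shows. It was listed at 0 in both Cont-IMQ libraries and at 0.0290 and 0.0314 FPKM in 7KC-IMQ skin. Of the 75-base windows of the *Uox* transcripts, 0 of 5208 also occur in another gene of the tables. The nearest gene of the tables before *Uox*, *Rpf1*, which encodes a ribosome production factor, had 32.3 and 30.8 FPKM in Cont-IMQ skin and 37.2 and 35.8 FPKM in 7KC-IMQ skin. The nearest gene after it, *Gm16325*, was at most at 0.0221 FPKM, and the nearest annotated one before it, the pseudogene *Gm36259*, was not analysed here.

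*Xdh* (ENSMUSG00000024066.9, chromosome 17, 73883895 to 73950196) encodes xanthine dehydrogenase, which forms the urate that urate oxidase consumes. It was the most abundant of the 8 in every library, with 71.3 and 77.5 FPKM in Cont-IMQ skin and 81.2 and 88.2 FPKM in 7KC-IMQ skin. The groups did not overlap, but the nearest libraries of the 2 groups differed only 1.05-fold, less than the 1.09-fold between replicates of either group. The log2 difference was 0.19 (SD within groups 0.084). The level of *Uox* set against *Xdh* within a library does not depend on a factor that scales all genes of a library alike. That ratio was 0.133 and 0.114 in the Cont-IMQ libraries, and 0.407 and 0.717 in the 7KC-IMQ libraries. *Uox* thus stayed below *Xdh* in each of the 4 libraries, and made up between 4.90% and 5.73% of the summed FPKM of the 8 genes in the Cont-IMQ group and 15.6% and 24.9% in the 7KC-IMQ group.

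*Ada* (ENSMUSG00000017697.3, chromosome 2, 163726584 to 163750239) encodes adenosine deaminase, which turns adenosine into inosine. It had 3.00 and 2.68 FPKM in Cont-IMQ skin and 3.90 and 5.73 FPKM in 7KC-IMQ skin. Both 7KC-IMQ libraries were higher, at an estimated 94 and 128 reads against 68 and 60 reads on its coding transcript. The means were 2.84 ± 0.227 and 4.81 ± 1.29 FPKM (SD, n = 2 for each), a log2 difference of 0.58, which was 0.35 without 7KC-IMQ replicate 2. *Gda* (ENSMUSG00000058624.13, chromosome 19, 21391307 to 21473445) encodes guanine deaminase, which turns guanine into xanthine. It had 18.2 and 22.9 FPKM in Cont-IMQ skin and 23.8 and 25.1 FPKM in 7KC-IMQ skin. The groups did not overlap, but Cont-IMQ replicate 2 lay closer to the 7KC-IMQ libraries than to its own replicate, and the log2 difference of 0.25 was 0.09 without Cont-IMQ replicate 1 and 0.41 without Cont-IMQ replicate 2.

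*Upp1* (ENSMUSG00000020407.13, chromosome 11, 9118103 to 9136170) encodes uridine phosphorylase, which splits the pyrimidine nucleoside uridine. It had 3.54 and 6.71 FPKM in Cont-IMQ skin and 7.04 and 7.26 FPKM in 7KC-IMQ skin. Here a single library was low, Cont-IMQ replicate 1, which also had the lowest sum of the hair follicle genes (39.6 FPKM). Whether that sum has a part in the *Upp1* difference was not tested. The log2 difference was 0.46 (SD within groups 0.38), 0.08 without that library and 0.84 without Cont-IMQ replicate 2.

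The other members, *Nt5e*, *Ampd3* and *Pnp*, had overlapping groups. *Nt5e* (ENSMUSG00000032420.8, chromosome 9, 88327197 to 88372092), which encodes CD73, had 8.505 and 9.44 FPKM in Cont-IMQ skin and 9.15 and 9.66 FPKM in 7KC-IMQ skin. *Ampd3* (ENSMUSG00000005686.17, chromosome 7, 110768206 to 110812405), an AMP deaminase known from red blood cells, had 16.0 and 12.0 FPKM against 15.7 and 15.1 FPKM. It shares 11974 bases with *Rnf141* on the opposite strand, which had between 25.1 and 26.9 FPKM in the 4 libraries. *Pnp* (ENSMUSG00000115338.2, chromosome 14, 50931082 to 50965237), which encodes purine nucleoside phosphorylase, had 34.9 and 40.6 FPKM against 37.5 and 39.5 FPKM. In all 3 genes the difference between the group means, 4.79%, 9.75% and 1.93% of the Cont-IMQ mean, was smaller than the gap between the Cont-IMQ libraries. *Pnp* and its neighbouring paralog *Pnp2* share 8.07% and 21.3% of their 75-base windows, so part of their reads can be exchanged. The protein-coding gene *Gm49342* overlaps *Pnp* on the same strand over 18620 bases and was not analysed here. Whether its reads bear on the level of *Pnp* was not tested.

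**Figure D3:**
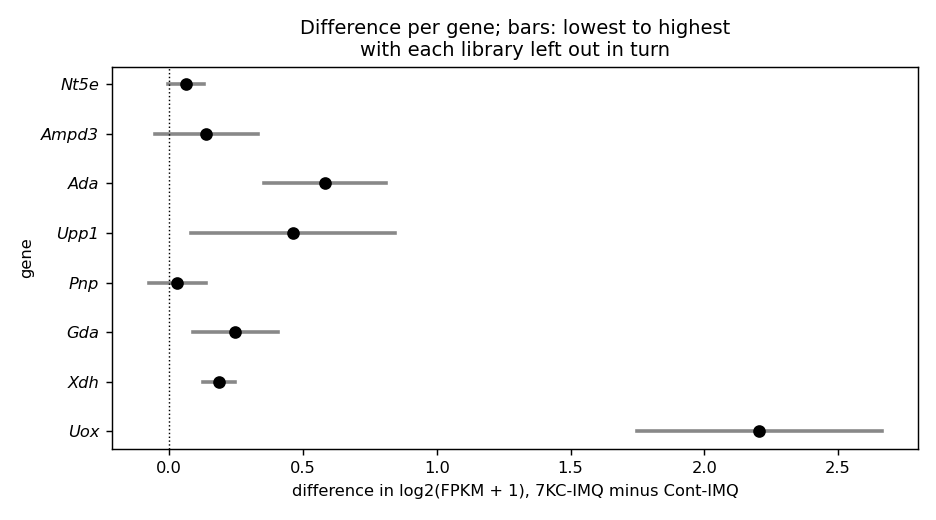
Difference in log2(FPKM + 1) between the groups (7KC-IMQ minus Cont-IMQ) for each of the 8 genes, with a bar from the lowest to the highest difference when each library was left out in turn. The bar of *Uox* runs from 1.75 to 2.66, and the bars of *Nt5e*, *Ampd3* and *Pnp* reach below 0. A bar can reach below 0 only in a gene whose groups overlap.

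Counted together, 5 of the 8 genes were higher without overlap between the groups, 3 overlapped and 0 were lower without overlap, and the mean difference lay above 0 in all 8. Of the 15896 genes tested, 23.9% were higher and 22.9% lower without overlap and 48.7% had a mean difference above 0, and nothing is read from this count, since the genes were chosen on the same contrast. The median log2 difference of the 8 genes was 0.22, against -0.01 over all genes tested. Overlap was judged throughout on the FPKM as deposited and was not counted again after rescaling. In *Gda*, *Xdh* and *Upp1* the nearest libraries of the groups differed 1.04-fold, 1.05-fold and 1.05-fold, so rescaling can change the count. All 8 passed the filter on low values. In the Cont-IMQ group the order of levels was *Xdh*, *Pnp*, *Gda*, *Ampd3*, *Uox*, *Nt5e*, *Upp1* and *Ada*, and only the neighbours *Uox* and *Nt5e* overlapped. In the 7KC-IMQ group *Uox* stood next after *Xdh*, overlapping with *Pnp*, and the order of the other 7 was the same.

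The genes whose pattern over the 4 libraries was most like that of *Uox* were sought by the Euclidean distance between centred log2(FPKM + 1) values among the 13110 genes that averaged 1 FPKM or more. The nearest were *S100a8* (distance 0.174), *S100a9* (0.182), *Sprr2f* (0.261), *Alox8* (0.414) and *Sprr2d* (0.417). *S100a8* and *S100a9* encode the subunits of calprotectin, made by stressed keratinocytes and by neutrophils, and the Sprr2 genes encode proteins of the cornified envelope. *S100a8* had 1267 and 1037 FPKM in Cont-IMQ skin and 3608 and 6775 FPKM in 7KC-IMQ skin. *Alox8*, which encodes an arachidonate lipoxygenase, had 10.5 and 7.04 FPKM against 28.8 and 72.1 FPKM. With 4 libraries this likeness rests mainly on the size of the group difference and on 7KC-IMQ replicate 2 lying above replicate 1. For the other members the distances were 0.104 or less, to *Akr1b8* and *Cd24a* for *Ada*, *Ifi205* and *Ptch1* for *Upp1*, *Nup205* and *Ints10* for *Xdh*, *Bcr* and *Lrfn4* for *Gda*, *Kif9* and *Aadac* for *Ampd3*, *Nob1* and *Sumo2* for *Nt5e*, and *Rps15* and *Rbm6* for *Pnp*.

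**Figure D4:**
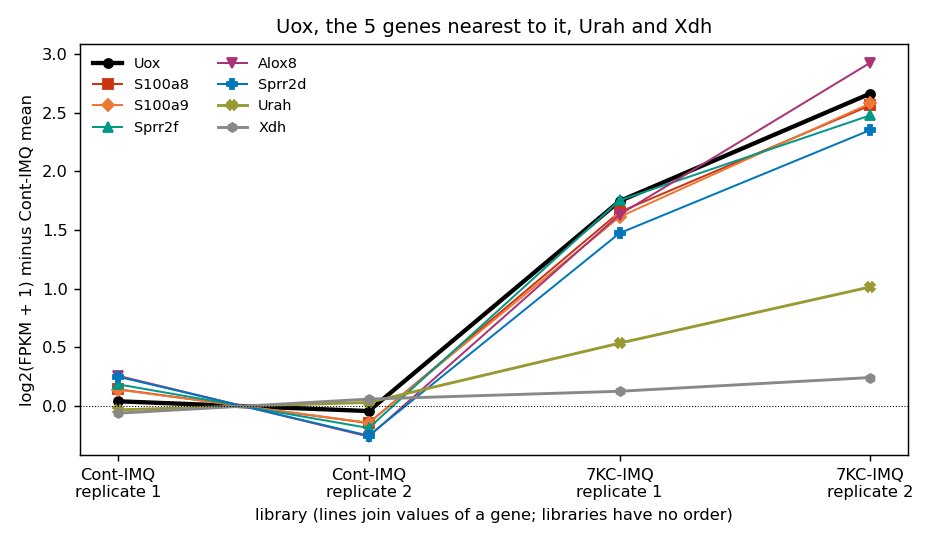
Level of *Uox*, of the 5 genes nearest to it, of *Urah* and of *Xdh* in each library, as log2(FPKM + 1) minus the mean of the Cont-IMQ group, with lines that join the values of a gene. *Uox* runs with the S100, Sprr2 and *Alox8* genes, and *Urah* and *Xdh* show smaller differences.

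Markers of other cells were summed in each library. Over all genes tested, 23.9% were higher and 22.9% lower without overlap between the groups, which is the background for the counts of markers below. The 10 hepatocyte markers summed to 133 and 205 FPKM in Cont-IMQ skin and to between 110 and 113 FPKM in 7KC-IMQ skin, and 0 of 10 were higher without overlap while 6 were lower. Most of that sum was *Cyp2e1*, and *Alb*, which encodes albumin, was at 1.59 and 1.93 FPKM in the Cont-IMQ and 1.39 and 0.538 FPKM in 7KC-IMQ skin. The part of hepatocyte RNA in the *Uox* difference was not tested. The neutrophil markers (4 of 5 found by symbol) summed to between 17.4 and 19.5 FPKM in Cont-IMQ skin and between 24.1 and 27.9 FPKM in the 7KC-IMQ group, with 3 of 4 higher without overlap. *Cxcr2*, a receptor of neutrophil-attracting chemokines, made up most of the sum, and the granule genes *Mpo* and *Elane* were at most at 0.740 FPKM. *Mpo*, 1 of the 3 counted as higher, was at most at 0.0562 FPKM. The part of neutrophils in the *Uox* and *Ada* differences was not tested. The 6 keratinocyte markers overlapped between the groups in sum (16003 to 23891 FPKM against 18487 to 20498 FPKM), as did those of fibroblasts, red blood cells, muscle, fat and hair follicles. Within the overlapping sums, 1 of 6 keratinocyte markers, *Krt14*, was higher without overlap (4409 and 4132 FPKM against 4807 and 5700 FPKM). Another, *Ivl*, was lower without overlap (302 and 353 FPKM against 215 and 233 FPKM). Of 4 fibroblast markers, 1 was higher and 1 lower without overlap, and 1 of 4 red blood cell markers was lower. In muscle, 2 of 3 markers were higher without overlap and 1, *Acta1*, lower, and 2 of 3 fat markers were higher. *Myh4*, which encodes a fast muscle myosin, had 125 and 62.9 FPKM in Cont-IMQ skin and 427 and 329 FPKM in 7KC-IMQ skin, a log2 difference of 2.07. *Lep*, which encodes the fat cell hormone leptin, had 1.64 and 1.16 FPKM against 9.75 and 3.70 FPKM. Both were singled out after their values were seen. The 4 macrophage markers were lower in sum in 7KC-IMQ skin (292 to 297 FPKM against 330 to 369 FPKM, with 3 of 4 lower without overlap), as were the 4 T cell markers (8.39 to 10.8 FPKM against 13.0 to 14.6 FPKM) and the 3 endothelial markers (29.5 to 31.0 FPKM against 34.4 to 39.1 FPKM). Of the T cell markers, 2 were lower without overlap and 1, *Cd8a*, was higher, at most at 0.126 FPKM. The 3 sebaceous gland markers were higher in sum (344 to 350 FPKM against 227 to 314 FPKM), with 2 of 3 higher without overlap. The third, *Mc5r*, was lower without overlap, with 2.86 and 2.62 FPKM in Cont-IMQ skin and 1.34 and 1.38 FPKM in 7KC-IMQ skin. Whether these cells have a part in any of the differences was not tested. Kidney tubule markers reached at most 0.0250 FPKM in sum.

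Beyond the 8 genes, a list of 76 other genes of purine and nucleotide metabolism was compared, of which 63 were tested and 5 were at 0 in all 4 libraries. The comparison was made by limma on log2(FPKM + 1) over all 15896 genes. None of the 63 passed an adjusted p of 0.05 (0.00629% of all genes did), and their adjusted p-values lay between 0.352 and 0.974. At an unadjusted p under 0.05, 12 were higher in the 7KC-IMQ group and 2 were lower, where 7.5% and 5.47% of all genes were. Of the 2061 genes below that threshold 57.8% were higher. With libraries rescaled to the same sum, 1867 genes were below it and 34.2% of these were higher. That rescaling moved the median difference of all genes to -0.07. With 2 libraries a group, these p-values measure only the spread between these libraries. The median log2 difference of the list was 0.08. The same rescaling brought the counts of the list to 6 higher and 4 lower and the median to 0.0021.

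*Urah* (ENSMUSG00000025481.12, chromosome 7, 140835018 to 140837966) encodes the hydrolase that acts on the product of urate oxidase. It had 754 and 788 FPKM in Cont-IMQ skin and 1118 and 1559 FPKM in 7KC-IMQ skin. Both 7KC-IMQ libraries were higher, as for *Uox*, with replicate 2 again the highest. The log2 difference was 0.78 (standard error 0.18, adjusted p = 0.356 in limma, higher in 2 of 2 libraries). Its level was far above that of *Uox*, whose FPKM was between 0.0112 and 0.0406 of that of *Urah*. On the opposite strand, *Gm45785* overlaps *Urah* over 2949 bases, the whole length of *Urah*, and *C330022C24Rik* overlaps it over 746 bases. *Gm45785* was not analysed here, and whether its reads add to the level of *Urah* was not tested. *Urad*, which encodes the decarboxylase of the next step, and *Allc*, which encodes allantoicase, were listed at 0 in all 4 libraries. *Mocos*, which encodes the sulfurase that activates the molybdenum cofactor of xanthine dehydrogenase, had 11.2 and 9.02 FPKM against 10.9 and 11.5 FPKM, and the groups overlapped.

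Of the 6 nucleoside transporters, 5 were tested, and 2 of them were higher at an unadjusted p under 0.05, as were 7.5% of all genes. *Slc29a2*, which encodes the equilibrative transporter ENT2, had 2.15 and 2.60 FPKM in Cont-IMQ skin and 4.95 and 5.80 FPKM in 7KC-IMQ skin. This was the largest difference of the list, 0.92 on the log2 scale (standard error 0.13, adjusted p = 0.352 in limma), and larger than the spread within either group. *Slc28a3*, which encodes a concentrative transporter, had 7.07 and 5.10 FPKM against 8.76 and 10.03 FPKM, and its log2 difference of 0.56 was 0.36 without Cont-IMQ replicate 2. *Slc28a2*, another concentrative transporter, named after its values were seen, went the other way without overlap, with 5.76 and 7.45 FPKM against 4.63 and 5.04 FPKM (log2 difference -0.37, adjusted p = 0.393 in limma). The median log2 difference of the 5 tested transporters was -0.13, and 2 of the 5 means were higher. *Adora2a*, one of the 4 adenosine receptors, was low throughout and lower in both 7KC-IMQ libraries, with 0.865 and 0.901 FPKM against 0.505 and 0.466 FPKM (log2 difference -0.34, adjusted p = 0.356 in limma). The median log2 difference of the 4 receptors was -0.27.

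Among enzymes that act on AMP and other nucleotides, *Alpl*, which encodes tissue-nonspecific alkaline phosphatase, had 1.54 and 3.02 FPKM against 4.89 and 3.72 FPKM. Its log2 difference was 0.72 (standard error 0.26, adjusted p = 0.374 in limma). Without Cont-IMQ replicate 1 it was 0.39. None of the 8 tested AMP deaminases and intracellular nucleotidases reached an unadjusted p of 0.05 in limma. *Mtap*, which splits methylthioadenosine, had 11.5 and 12.3 FPKM against 14.6 and 15.6 FPKM, and *Aprt*, which salvages adenine, had 70.2 and 70.0 FPKM against 83.7 and 97.8 FPKM. *Pnp2* had 2.05 and 3.75 FPKM against 2.16 and 1.36 FPKM, with overlapping groups. The aldehyde oxidases, relatives of xanthine dehydrogenase, went in both directions. *Aox3* was lower, at 2.34 and 2.69 FPKM against 1.79 and 1.06 FPKM (log2 difference -0.55, adjusted p = 0.365 in limma), and *Aox4* had 28.4 and 19.1 FPKM against 31.4 and 46.3 FPKM (log2 difference 0.69, adjusted p = 0.386 in limma). The difference of *Aox3* was -0.33 without 7KC-IMQ replicate 2, and that of *Aox4* was 0.41 without Cont-IMQ replicate 2 and 0.42 without 7KC-IMQ replicate 2.

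By sub-list, 1 of 6 tested genes for nucleotides outside the cell, 1 of 6 salvage genes and 1 of 6 other deaminases and phosphorylases were higher at an unadjusted p under 0.05 in limma. Of 2 tested urate transporters and 4 tested genes of pyrimidine breakdown and uridine salvage, 0 reached that threshold in limma, and 1 and 1 were higher and 0 and 2 lower without overlap. Over all genes, 7.5% were higher and 5.47% lower at that threshold, and 23.9% were higher and 22.9% lower without overlap.

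The purine synthesis pathway builds the nucleotides that the breakdown enzymes take apart. Of its 13 listed genes, all of them tested, 11 were higher without overlap, 0 were lower and 2 overlapped, and 6 were higher at an unadjusted p under 0.05 in limma. Over all genes tested, 23.9% were higher and 22.9% lower without overlap, and 7.5% were higher at that p. The median log2 difference was 0.22, against 0.04 for the other 50 genes of the list. With libraries rescaled to the same sum that median was 0.14, and 10 of the 13 means were higher, 1 of them at an unadjusted p under 0.05. Of the 13 genes, 1 was higher at that threshold without 7KC-IMQ replicate 2, 2 without 7KC-IMQ replicate 1, 3 without Cont-IMQ replicate 1 and 4 without Cont-IMQ replicate 2. In *Impdh1*, which encodes an IMP dehydrogenase of guanine nucleotide synthesis, FPKM was 15.0 and 14.4 in Cont-IMQ skin and 19.6 and 22.4 FPKM in 7KC-IMQ skin. Its log2 difference was 0.48 (standard error 0.097, adjusted p = 0.352 in limma), the largest of the 13. *Ppat*, the first committed step, had 5.08 and 5.04 FPKM against 6.42 and 6.56 FPKM, and *Gart* had 24.9 and 23.99 FPKM against 29.7 and 30.02 FPKM. In both genes the replicates of a group nearly coincided while the groups stood apart. *Atic*, *Gmps* and *Impdh2* also passed the unadjusted threshold, with log2 differences of 0.28, 0.33 and 0.22. *Adssl1*, known as the muscle form of adenylosuccinate synthase, was the only one of the 13 with a lower mean, at 77.3 and 47.8 FPKM against 43.2 and 52.2 FPKM, and its groups overlapped.

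**Figure D5:**
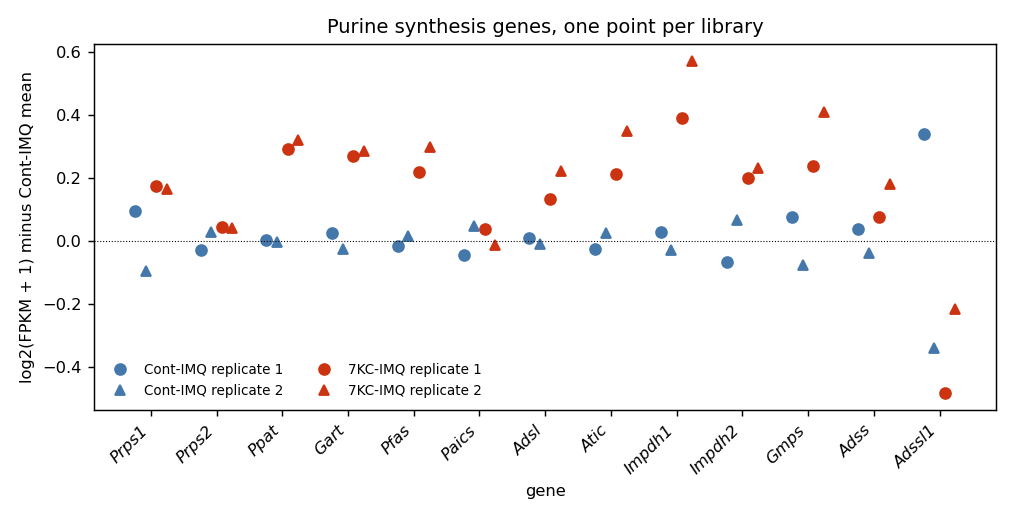
Level of the 13 purine synthesis genes in each library, as log2(FPKM + 1) minus the mean of the Cont-IMQ group. In 11 genes both red points (7KC-IMQ) lie above both blue points (Cont-IMQ), and the highest red point of *Impdh1* lies 0.57 above the Cont-IMQ mean.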

How the data were processed

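RNA sequencing of IMQ-treated dorsal skin gave 4 libraries. Single-end reads of 75 bases were mapped to mm10 by the authors, who deposited one FPKM per gene symbol for each library. The submitters' processing notes name TopHat2 2.1.1, Bowtie2 2.2.8, SAMtools 0.1.18 and Cuffdiff 2.2.1. The methods of the paper name other versions of TopHat, Bowtie2 and SAMtools, and Cufflinks for the FPKM. How reads that map to several genes, and strand, were handled is not given in the sources used here. No read counts were used. Depth was estimated by finding the number of reads that brings low FPKM values of 3915 genes with 1 annotated transcript closest to whole reads. Between 69.3% and 71.2% then lay within 0.1 of a whole read, against 20% for even spacing, so reads are estimates and cover counting error only.

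From the deposited FPKM, log2(FPKM + 1) was computed, which understates differences of low genes. The 15896 genes that averaged 0.1 FPKM or more were compared by limma 3.58.1 in R 4.3.3 with a variance trend and Benjamini-Hochberg adjustment at 0.05. The fit was tried on simulated data with independent genes and planted changes larger than most differences given here. That trial does not show how well the fit works on these libraries. The 8 genes and all lists were chosen with earlier results of these data known. Named outside the 8 are list genes with an unadjusted p under 0.05, or without overlap and a log2 difference of at least 0.5 in size, together with *Pnp2*, *Urah*, *Urad*, *Allc*, *Mocos*, neighbours and overlapping genes, the nearest patterns and cell markers. Other genes named were chosen after their values were seen. Loci came from GENCODE M21 (GRCm38). The alternatives changed the pseudocount (0.1), the filter (an average of 1 FPKM, or none) and the scaling (3 others), dropped the variance trend, added the replicate number as a block, or left out each library in turn.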

Additional observations from a re-analysis of the deposited data

How the results depend on the processing

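The log2 difference of *Uox* was 2.31 with a pseudocount of 0.1 and between 2.13 and 2.20 with the 3 other scalings. The value of 2.20 came from scaling each library by its median ratio to the geometric means of the genes. That scaling hardly altered the values, so it tests little. The *Uox* difference lay between 1.75 and 2.66 when each library was left out in turn. Its sign could not change with the pseudocount or with a library left out, since the groups did not overlap. The small differences of 3 other members changed sign. *Pnp* went from 0.03 to -0.050 with the same sum in each library and to -0.017 with quantile normalization, and lay between -0.077 and 0.14 with a library left out. *Nt5e* was at -0.012 with the same sum in each library and between -0.0060 and 0.13 with a library left out, and *Ampd3* between -0.054 and 0.33. Over all genes, 1 passed the adjusted threshold, against 2 with a pseudocount of 0.1, 71 without a filter, and 1 to 9 with a library left out (9 without Cont-IMQ replicate 1 and 5 without Cont-IMQ replicate 2). The 2061 genes at an unadjusted p under 0.05 became 615 (without 7KC-IMQ replicate 2) to 2331 with a library left out, and 1137 without 7KC-IMQ replicate 1. Of the other purine and nucleotide genes, the 12 higher became 6 and the 2 lower became 4 with the same sum in each library. With a library left out, 3 (without 7KC-IMQ replicate 2) to 12 were higher and 1 (without 7KC-IMQ replicate 1) to 5 (without Cont-IMQ replicate 1) lower. The median of that list, 0.08, was 0.0021 with the same sum in each library and 0.044 to 0.15 with a library left out. Leaving out a library leaves a single sample in a group, which is then assumed to vary like the others. With the replicate number as a block, 9 of these genes were higher and 4 lower, 3 of the purine synthesis genes were higher against 6, and 1 gene passed over all genes. Deviations of libraries with the same number correlated at 0.065, and nothing in the labels pairs them. The causes were not tested. With 2 libraries in each group, the differences of *Gda* and *Upp1* were also smaller than the gap between the Cont-IMQ libraries. The ratio of the group means was 1.19 for *Gda* and 1.40 for *Upp1*, against 1.26 and 1.90 between the Cont-IMQ libraries.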
